A study of Mus musculus with 87 samples.

Results

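The genes of the cytoplasmic ribosome were followed here through mouse androgenetic haploid embryonic stem cells, preimplantation embryos, and organs from late gestation and the first day after birth. They were taken by name, as every symbol beginning with Rpl or Rps and a number, together with the Rplp genes of the ribosomal stalk. Kinases of the Rps6k family and symbols marking pseudogenes were left out. This gave 89 genes, 54 of the large subunit and 35 of the small subunit, of 25277 symbols in each of 10 tables of read counts. The name rule leaves out 4 ribosomal proteins or ribosome-associated proteins with other names, among them Rpsa and Fau. It takes in Rps19bp1 and Rpl7l1, which are not core subunits, and Rps4l and Rpl32l, which the annotation lists as a transcribed processed pseudogene and a processed pseudogene.

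A ribosome is built from ribosomal RNA and one copy each of nearly all of its proteins, so cells make the messages of these proteins in similar amounts, and in large amounts where they grow. Their messages are short, and most begin with a C followed by a run of pyrimidines (a TOP motif) through which the mTOR pathway and the RNA-binding protein LARP1 set how strongly they are translated. Several proteins have a second gene used in particular tissues: Rpl3l in heart and skeletal muscle, and Rpl10l and Rpl39l in male germ cells, where the X chromosome that carries the parent genes Rpl10 and Rpl39 is silenced.

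The study examined mice obtained from haploid stem cells that lack DNA methylation, and 87 RNA-seq libraries were deposited. The haploid cells, labelled AG-haESC, were Dnmt WT (3 libraries), Dnmt TKO (3) or Dnmt STOP (2), where Dnmt names the DNA methyltransferases. Embryos labelled pWT or pIR were collected as 2C embryos (2-cell stage, 4 and 4 libraries), morulae (3 and 4) and blastocysts (4 and 4). At E18.5, late in gestation, a first batch held pWT and pTKO liver, kidney, lung, brain and heart (2 and 2 libraries each) and a second batch held pWT and pIR heart and liver (4 and 4), while heart, kidney, liver and lung at P1 (postnatal day 1) were pWT (3) or pIR (2). What the prefix p, IR and STOP stand for was left unsaid by the labels, as were the age of the cultures and the sex of embryos and pups. No label says that libraries of a group came from separate cultures, embryos or animals, so every p-value below measures the spread between these libraries, which may be technical. Of the embryo columns, 11 carried a name found in no label and were given, as the ones left over, to the pWT libraries with their stage and number. Every pIR against pWT comparison in embryos and every pWT comparison between stages rests on that assignment.

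Library totals ran from 6136789 to 37396693 counts. In the haploid cells, Dnmt1 lay at 418 to 425 CPM (counts scaled to a common library total) in WT, 68.8 to 74 in TKO and 572 and 601 in STOP. Dnmt3a lay at 64.4 to 75, 10.5 to 11.9 and 54.9 to 56.5 CPM in the same order, and Dnmt3b at 126 to 149, 21.8 to 26.9 and 122 to 128 CPM, so all 3 messages were low in the TKO libraries and not in the STOP libraries. Each organ's own markers were at their highest in that organ: summed liver markers were at 33530 CPM or more in livers, and their highest value elsewhere was 1862 CPM, in a pTKO heart. These are bulk libraries, in which fewer cells of a type and less RNA per cell cannot be told apart.

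The sequences that follow are read from RefSeq (build GRCm38.p6, the mm10 genome used for the counts) and show 30 bases around the transcript start of genes on which the results turn: 10 bases before the start and 20 from it on, 5′ to 3′. Capitals mark a C followed by 5 or more pyrimidines where it begins within the 15 bases from 5 before the start, and such runs farther from the start stay in lower case. The first 4 had among the largest rises from the 2-cell stage to the morula and hold such a run in those 15 bases. Rpl36, which had the largest rise in pWT embryos, is not shown. The next, Rps27l, was among the most abundant at the 2-cell stage and holds none there. The rest are genes of near copies, which are followed through the study below. Of these, Rpl7l1 holds no such run there, yet it was called as rising in pWT embryos. It lay at 11.1 to 77.2 CPM in 2-cell and 252 to 373 CPM in morula libraries. The genes shown are examples, and a link between such a run and the rise was not tested.
Rpl38: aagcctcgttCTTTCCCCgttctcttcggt
Rps18: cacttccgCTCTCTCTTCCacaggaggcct
Rpl14: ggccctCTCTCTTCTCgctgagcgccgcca
Rpl12: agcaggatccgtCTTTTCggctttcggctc
Rps27l: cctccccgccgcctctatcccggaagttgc
Rpl39l: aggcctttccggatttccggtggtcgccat
Rpl10l: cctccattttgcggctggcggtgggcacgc
Rpl3l: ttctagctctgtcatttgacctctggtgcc
Rpl22l1: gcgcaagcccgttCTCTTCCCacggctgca
Rpl7l1: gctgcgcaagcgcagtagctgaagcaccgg
These windows lie, in the same order, at chr11:114668570-114668599 (plus strand), chr17:33955646-33955675 (minus strand), chr9:120571507-120571536 (plus strand), chr2:32961702-32961731 (plus strand), chr9:66946076-66946105 (plus strand), chr16:10170218-10170247 (plus strand), chr12:66284382-66284411 (minus strand), chr17:24727816-24727845 (plus strand), chr3:28805498-28805527 (plus strand) and chr17:46782637-46782666 (minus strand). Among 80 promoters listed for 68 members, 33 (41.2%) held a C followed by 5 or more pyrimidines that began within the 15 bases from 5 before the start, against 4315 (13.1%) of 32851 promoters of all genes. The letters CGGAAG, on either strand, occurred in 300 bases around the start of 46 member promoters (57.5%) and of 5537 of all promoters (16.9%). The median number of CG dinucleotides was 21 in member promoters and 7 in all promoters. These counts describe letters in a window and say nothing of binding.

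Member transcripts were short, with a median length of 764 bases (345 to 5130) against 2123 bases for all annotated genes, and 69 members lay under 1000 bases, as did 19.9% of all genes. Several comparisons held a trend of fold change on transcript length across all genes. Where this touches the members, the median of the other genes under 1000 bases is given beside the members' median, as is the members' count after the trend was taken out. Reads of Rps27 and of its near copy Rps27rt cannot be told apart in these counts, since the 2 symbols differed by at most 35 counts in every library.

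The share of all counts that fell on the 89 genes differed several-fold between stages and organs. At the 2-cell stage it was 1.02 ± 0.394% (SD, n = 4) in pWT embryos, with libraries from 0.606 to 1.51%. In morulae it was 6.90 ± 0.516% (n = 3) and in blastocysts 6.89 ± 0.38% (n = 4), so no library of these stages came near the 2-cell range. The 2-cell libraries were deposited separately from the morulae and blastocysts, so stage cannot be told from any other difference between those deposits. WT haploid stem cells stood at 4.4 ± 0.18% (n = 3). Among pWT organs the share was lowest in E18.5 brain (1.43 and 1.5%) and highest in kidney on postnatal day 1 (6.26 ± 0.339%, n = 3). Postnatal liver stood at 4.91 ± 0.456% (n = 3) and heart at 3.88 ± 0.168% (n = 3). Heart and kidney did not overlap, and liver lay between them without overlapping either. The pWT hearts of E18.5 differed by batch, at 3.46 and 3.48% in the first and 2.24 to 2.59% in the second, without overlap. Batch and any other difference between those deposits cannot be told apart.

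**Figure D1:**
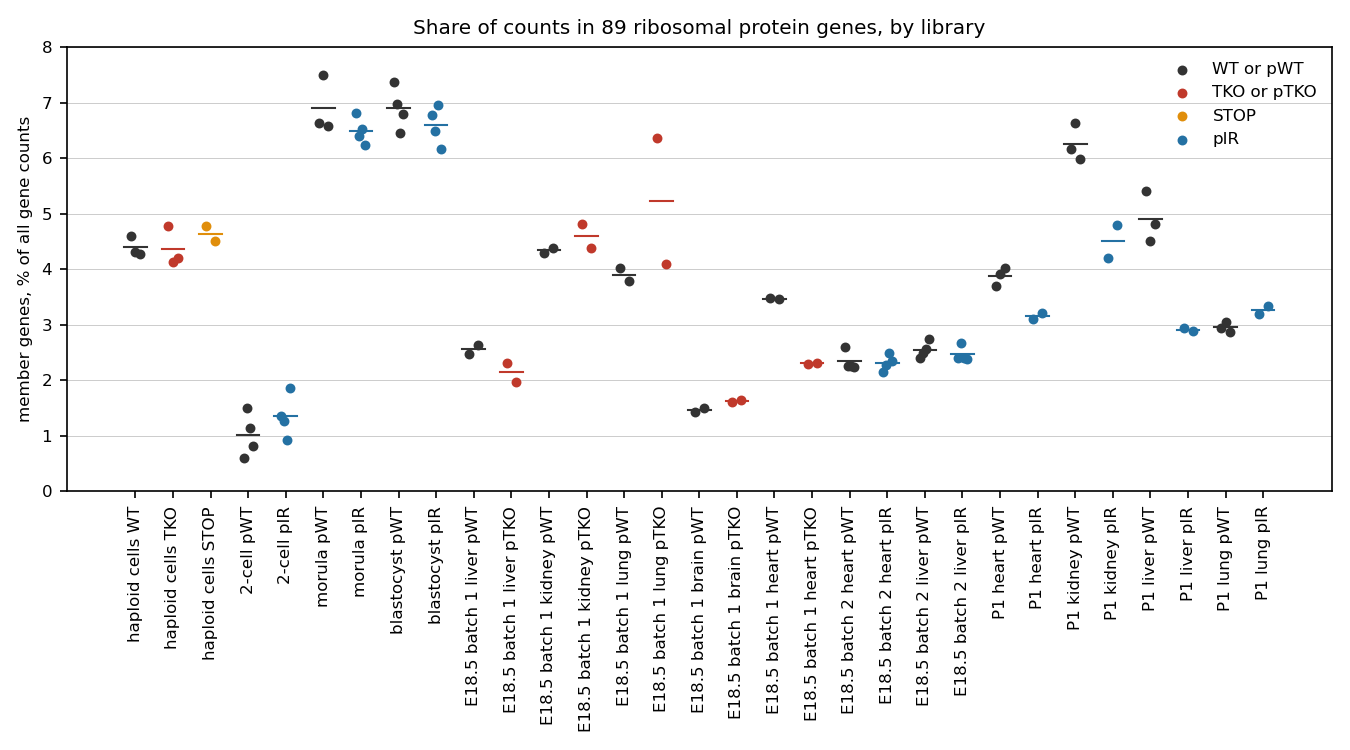
Share of all counts on the 89 ribosomal protein genes (percent, vertical axis from 0) in each of the 87 libraries, by stage, organ and batch (horizontal axis). Each point is 1 library, coloured by genotype, and bars mark group means; 2-cell embryos lie between 0.606 and 1.86%, and morulae and blastocysts between 6.17 and 7.50%.

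From the 2-cell stage to the morula, when the embryo replaces maternal messages with its own, 74 of 89 tested members rose and 0 fell in pWT embryos (edgeR quasi-likelihood test, Benjamini-Hochberg adjusted p under 0.05 over all genes), beside 32.6% of all genes called, 12.5% up and 20.1% down. The members' median log2 fold change was 2.77 against -0.16 over all genes tested, and other genes under 1000 bases had a median of 0.03. In pIR embryos, 82 of 88 tested members rose and 2, Rps27l and Rpl3l, fell, beside 51.6% of all genes called, 25.2% up and 26.4% down. The median there was 2.71 against 0.12 for all genes and 0.68 for other short genes. With the length trend taken out, 70 rose and 2 fell in pWT, and 75 rose and 2 fell in pIR embryos. In pWT, 86 of 89 members were higher in every morula than in any 2-cell library, as were 33.1% of all genes tested. All these comparisons cross the separate deposits of 2-cell embryos and morulae, which cannot be told apart from stage.

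The largest rises were of ordinary subunits. Rpl36, a large-subunit protein, lay at 6.15, 2.29, 1.79 and 3.73 CPM in the 4 pWT 2-cell libraries and at 238, 331 and 250 CPM in the 3 morulae. It was low in all 4 of the former and high in all 3 of the latter (log2 fold change 5.74, SE 0.55, edgeR adjusted p = 0.000298), and rose by 5.33 in pIR embryos (adjusted p = 0.000116). Rps18, a protein of the small-subunit head, lay at 17.8 to 47 CPM and then at 1023 to 1132 CPM (log2 4.55, adjusted p = 0.000245). Rpl38, a large-subunit protein whose loss in mice disturbs the axial skeleton, went from 8.08 to 30.5 CPM up to 456 to 861 CPM (log2 4.55, adjusted p = 0.000849). Rpl14 rose by 4.33 (adjusted p = 0.01531), although its 2-cell level spread widely over 4.41, 50.7, 27.1 and 1.37 CPM, and Rpl12, a protein of the stalk base, rose by 4.21 (adjusted p = 0.000613). The TOP-like runs of Rpl38, Rps18, Rpl14 and Rpl12 are those printed above. The smallest called rises in pWT were those of Rps12 (1.46) and Rpl28 (1.5), so called members spread over more than 4 log2 units.

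Rps27l did not follow the others. This near copy of Rps27, a transcriptional target of p53, lay at 773, 1459, 2797 and 1738 CPM in pWT 2-cell libraries and at 962, 1575 and 817 CPM in pWT morulae, and the groups overlapped. In pIR embryos it lay at 2594, 3223, 2124 and 1015 CPM and then at 1392, 1017, 1065 and 1106 CPM, a fall of 1.11 (SE 0.35, edgeR adjusted p = 0.02301) with 1 low 2-cell library, at 1015 CPM, below every morula and the other 3 above them all. Over all 8 of the 2-cell libraries, Rps27l held 5.45 to 25.6% of member counts, Rpl41 held 6.68 to 20.9%, and Rplp0, the scaffold of the stalk, held 3.57 to 15.6%. In morulae Rps27l held 1.24 to 2.1%. Without these 3 genes, members made up 0.398 to 1.30% of counts in 2-cell and 5.64 to 6.57% in morula libraries. The window of Rps27l printed above has no marked run, though one begins farther upstream of the listed start.

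The other near copies moved each in their own way. Rpl3l, the muscle copy of Rpl3, had 0 to 103 counts in pWT 2-cell libraries (221 in all, or 3.08 CPM over the group) and 15 to 136 in pIR (285 in all, 10 CPM), and 0 counts in all 15 morula and blastocyst libraries. Against a floor of 3 counts over each morula group, that is at least 37.1-fold lower in pWT morulae and at least 192-fold lower in pIR morulae. This limit covers counting error only. Rpl10l rose by 3.36 in pIR (edgeR adjusted p = 0.005625), and its pWT difference of 4.16 did not pass (adjusted p = 0.1043). Rpl39l rose by 2.18 in pIR (adjusted p = 0.0008982) and had 1.57 in pWT (adjusted p = 0.06315). Its parent Rpl39 had the smallest called rise in pIR, 0.94, and that value was -0.003 (adjusted p = 0.9958) once the length trend was taken out.

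**Figure D2:**
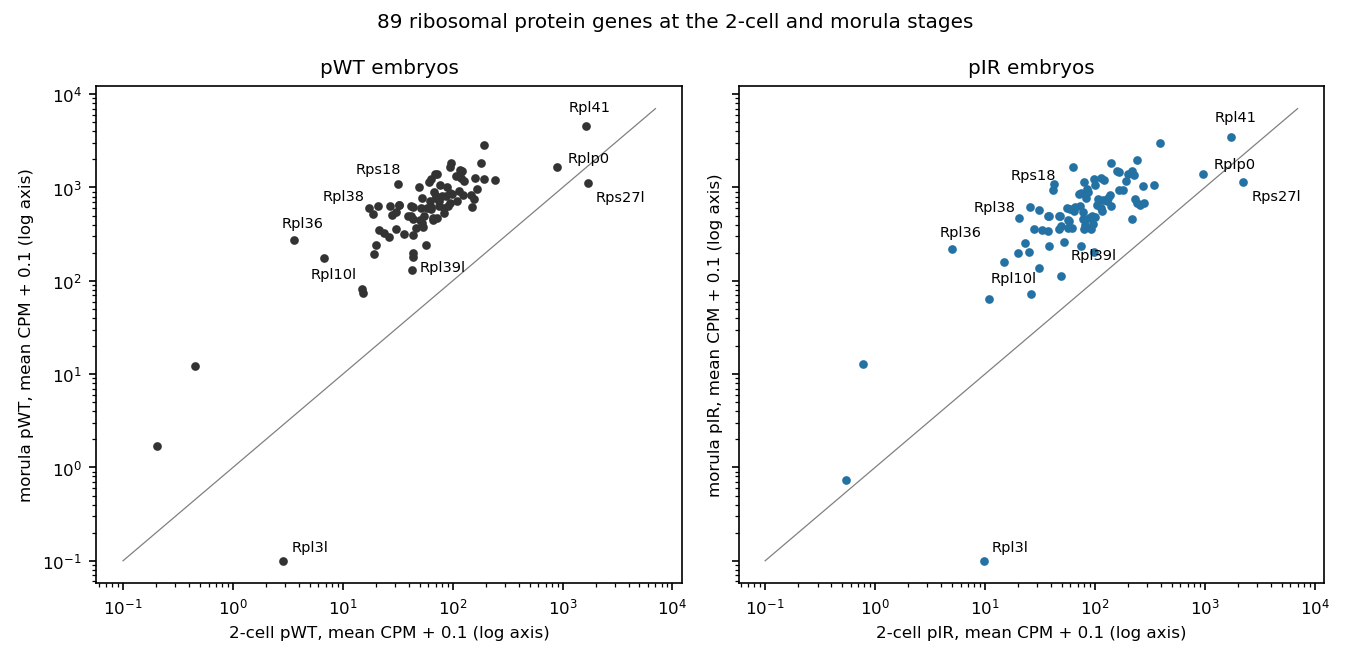
Mean CPM of each ribosomal protein gene in 2-cell embryos (horizontal axis, log scale) and in morulae (vertical axis, log scale), for pWT and pIR embryos; each point is 1 gene and the line marks equal levels. Nearly all genes lie above the line, Rpl36 far above it at 1.79 to 6.15 CPM in pWT 2-cell and 238 to 331 CPM in pWT morula libraries, and Rps27l near it.

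From morula to blastocyst the members as a group moved little. In pWT, 2 of 88 rose and 15 fell, beside 25.2% of all genes called (13.4% up, 11.8% down), with a median of -0.22 against 0.14 for all genes. In pIR, 4 of 87 rose and 15 fell, beside 29.2% called (14.1% up, 15.1% down), with a median of -0.19 against 0.07. Both shares of members called, rises and falls together, were below those of all genes. The share that fell was above that of all genes in pWT and near it in pIR, and the share that rose was below it in both. Of the called falls, 10 in pWT and 5 in pIR were without overlap. Rpl41, the smallest ribosomal protein, fell by 0.93 and 0.98, and Rpl13a, which also acts outside the ribosome as a translational silencer, by 0.76 and 0.64. Rps28 rose, by 0.75 (edgeR adjusted p = 0.004326) in pWT and 0.83 (adjusted p = 0.002037) in pIR. The other called rises were those of Rps20 in pWT (0.56) and of Rpl22l1 (0.65), Rps18 (0.49) and Rpl12 (0.47) in pIR. The 17 pWT calls became 7 without pWT blastocyst replicate 2 or 4, 10 or 11 without morula replicate 2 or 3 or blastocyst replicate 1. The 19 pIR calls became 6 without pIR blastocyst replicate 1 or 4, 7 without blastocyst replicate 2 or morula replicate 4, and 10 without morula replicate 3.

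Related lists were set beside the members at both transitions, with the shares of all genes given above. From the 2-cell stage to the morula, the 4 ribosomal proteins outside the name rule all rose in both genotypes (medians 3.46 in pWT and 3.32 in pIR). Of 18 elongation factors and other TOP messages, 10 rose in pWT and 15 in pIR with 0 falling, among them Eef1a1, the elongation factor that brings aminoacyl-tRNA to the ribosome (2.37, edgeR adjusted p = 0.0009316). Proteins of the mitochondrial ribosome rose in 33 of 78 cases and fell in 1 in pWT, and rose in 65 and fell in 1 in pIR. Ribosome assembly factors, the proteins that process ribosomal RNA and fold subunits in the nucleolus, rose in 8 and fell in 1 of 50 in pWT, a share near the 12.5% of all genes that rose, and rose in 24 and fell in 1 in pIR. Of 15 genes of RNA polymerase I and its factors, 2 rose and 0 fell in pWT (median 0.96), and 3 rose and 1 fell in pIR (median 0.22). Of 14 regulators of ribosomal protein messages, 4 rose and 1 fell in pWT (median 1.90), and in pIR 7 of 13 tested rose and 0 fell (median 1.71). From morula to blastocyst 31 of the 50 assembly factors fell in pWT (median -0.86) and 32 in pIR (-0.92), with 0 rising. Nhp2, of the small nucleolar particles that modify ribosomal RNA, fell by 1.83 (adjusted p = 7.09e-05). RNA polymerase I, which makes ribosomal RNA, and its factors had 3 of 15 falling in pWT and 6 in pIR with 0 rising, led in pWT by the subunit gene Polr1c (-1.60, adjusted p = 0.0009992).

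In haploid stem cells the share was alike in the 3 genotypes: 4.4 ± 0.18% in WT (n = 3), 4.37 ± 0.35% in TKO (n = 3, 4.14 to 4.77%) and 4.50 and 4.78% in STOP, with all groups overlapping. In TKO, 1 of 88 tested members rose and 2 fell, beside 14.6% of all genes called (9.83% up, 4.72% down), and the median was -0.04 against 0.01. In STOP the counts were again 1 and 2, beside 23.1% called (13.8% up, 9.37% down), with -0.02 against 0.01. A smaller share of members than of all genes was called in both, and the same 3 genes, Rpl39l, Rpl10 and Rps4x, passed in each. The 2 comparisons share the WT libraries and 1 estimate of spread, so their values are given side by side and neither is a check on the other.

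Rpl39l, the copy of Rpl39 known from male germ cells, was the member that rose. It lay at 9.12, 8.58 and 10.1 CPM in WT, at 41.9, 30.6 and 32.9 CPM in TKO and at 31.4 and 24.3 CPM in STOP. Every TKO and STOP library lay above every WT library, with log2 fold changes of 1.87 (SE 0.16, edgeR adjusted p = 0.0006506) and 1.49 (SE 0.17, adjusted p = 0.002634). Rpl10l, the other copy of this kind, did not pass: it lay at 36.8 to 41.5 CPM in WT, 24.4, 32 and 63.3 CPM in TKO and 41.5 and 47.3 CPM in STOP. The 250 bases upstream of the start of both genes are shown with each CG dinucleotide, the site that Dnmt enzymes methylate, in capitals. There are 12 such sites at Rpl39l (chr16:10169978-10170227, plus strand) and 8 at Rpl10l (chr12:66284402-66284651, minus strand), and their methylation was not analysed here.
Rpl39l: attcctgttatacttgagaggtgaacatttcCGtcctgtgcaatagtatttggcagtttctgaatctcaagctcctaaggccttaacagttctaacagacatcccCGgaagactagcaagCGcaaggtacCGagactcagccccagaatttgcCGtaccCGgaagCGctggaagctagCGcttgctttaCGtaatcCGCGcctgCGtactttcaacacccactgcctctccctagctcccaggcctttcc
Rpl10l: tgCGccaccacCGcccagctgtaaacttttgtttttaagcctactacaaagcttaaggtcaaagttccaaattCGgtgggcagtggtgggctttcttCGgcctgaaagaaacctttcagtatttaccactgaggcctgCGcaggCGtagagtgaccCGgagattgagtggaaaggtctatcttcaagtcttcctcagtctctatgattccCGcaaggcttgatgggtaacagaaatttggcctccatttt

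Rpl10, which helps join the subunits, and Rps4x, a small-subunit protein, are both on chromosome X, and both fell. Rpl10 lay at 1428, 1500 and 1425 CPM in WT, at 909, 907 and 1195 CPM in TKO and at 1068 and 999 CPM in STOP, without overlap (log2 -0.57, edgeR adjusted p = 0.02703, and -0.59, adjusted p = 0.02878). Rps4x lay at 1863, 1762 and 1694 CPM in WT, 1233, 1153 and 1410 CPM in TKO and 1418 and 1277 CPM in STOP (-0.53, adjusted p = 0.01701, and -0.5, adjusted p = 0.02574). The other X-linked members did not pass, with -0.43 and -0.57 for Rpl39 and -0.49 and -0.58 for Rpl36a. Chromosome X as a whole was lower in most of these libraries. Over 580 other X-linked genes the median shift from the WT mean was -0.77, -0.49 and -0.01 log2 units in TKO replicates 1, 2 and 3, and -0.56 and -0.43 in the STOP replicates. The 4 X-linked members had -0.71, -0.70, -0.16, -0.51 and -0.62 in the same order, and the other members stayed between -0.14 and 0.05. TKO replicate 3 thus stood apart on X and had the highest Rpl10 and Rps4x of its group. The part of the chromosome-wide shift in these 2 falls was not tested. Without TKO replicate 3, 12 members were called in TKO and 13 in STOP, and without TKO replicate 1 there were 10 in STOP. The count was 1 in TKO without any 1 of the WT libraries or TKO replicate 2, and 1 in STOP without any 1 of the WT or STOP libraries.

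Around the ribosomal genes, 6 of 50 assembly factors fell in TKO (median -0.27) and 27 fell in STOP (median -0.41), with 0 rising in either. Nop10, a component of the small nucleolar particles that modify ribosomal RNA, fell by 0.72 (edgeR adjusted p = 0.004095) and by 0.77 (adjusted p = 0.005444), and Eif6, which keeps the large subunit from joining too early, by 0.50 (adjusted p = 0.01997) and 0.69 (adjusted p = 0.009886). Dkc1, the pseudouridine synthase of the same particles, fell by 0.51 and 0.65. Of 15 RNA polymerase I genes, 3 fell in each. Among 14 regulators of these messages, Myc, a transcription factor that drives ribosome production, lay at 28.4 to 41.5 CPM in WT and 1.36 and 2.70 CPM in STOP, and fell in STOP by 4.25 (SE 1.06, adjusted p = 0.02519). In TKO it ranged from 0.859 to 16 CPM and did not pass (-2.41, adjusted p = 0.0714). The 4 ribosomal proteins outside the name rule had medians of 0.00 and 0.05.

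Among embryos, pIR and pWT libraries of the same stage were compared for the ribosomal genes at 3 stages. At the 2-cell stage the shares were 1.02 ± 0.394% (n = 4) in pWT and 1.35 ± 0.391% (n = 4) in pIR, with overlap, and 0 of 87 tested members passed beside 0% of all genes. By edgeR 1 member had an unadjusted p under 0.05, and DESeq2 called 0. The members' median was 0.42 against -0.04 for all genes. In morulae the shares were 6.90 ± 0.516% (n = 3) and 6.49 ± 0.243% (n = 4), and 0 of 88 members passed beside 0.136% of all genes (0.0425% up, 0.0934% down). By edgeR 3 had an unadjusted p under 0.05, and DESeq2 called 1. The median was 0.02, while other genes under 1000 bases had 0.19, and with the length trend taken out the members' median was -0.17.

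One pIR morula library was low across chromosome 5. In replicate 1 the median shift of 735 other chromosome 5 genes from the pWT mean was -0.88 log2 units, and that of the 6 members on that chromosome was -0.72, while its other members stood at 0.14. Rplp0 lay at 690 CPM in it, at 1586 to 1751 CPM in the other 3 and at 1431 to 1843 CPM in pWT, so this library lay below all others. Rpl9 lay at 514 against 938 to 1004 CPM in the other pIR libraries and Rpl5, which binds the 5S ribosomal RNA, at 1079 against 1720 to 1923 CPM. The low chromosome 5 level and the count of 0 called members came from the same 4 libraries, and its part in the latter was not tested beyond leaving that library out, which also gave 0 calls.

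In blastocysts the shares were 6.89 ± 0.38% in pWT and 6.60 ± 0.344% in pIR (n = 4 each), overlapping, and single genes moved in both directions. Of 87 tested members 4 rose and 3 fell, beside 10.6% of all genes called (6.74% up, 3.9% down), with a median of 0.11 against -0.07. Rpl22, an RNA-binding protein of the large subunit, lay at 351, 537, 396 and 340 CPM in pWT and at 201, 204, 203 and 207 CPM in pIR. All pIR libraries lay below all pWT libraries, and within a narrow range (log2 -0.81, edgeR adjusted p = 0.01573). Its near copy Rpl22l1, whose message Rpl22 is known to repress, lay at 97.7, 41.2, 38.2 and 104 CPM in pWT and 122, 140, 108 and 118 CPM in pIR, again without overlap, and rose by 1.01 (adjusted p = 0.03571). The 2 genes did not move in opposite directions throughout. In pIR kidney at P1 both fell (Rpl22 log2 -0.665, edgeR adjusted p = 0.0362, and Rpl22l1 -1.65, adjusted p = 0.04097). Both also fell in pIR liver at P1 (-0.578, adjusted p = 0.01319, and -0.7348, adjusted p = 0.0321). Any link between the genes was not tested.

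Rps12 fell by 0.86 (edgeR adjusted p = 0.01001), from 251 to 309 CPM in pWT down to 111 to 156 CPM in pIR, and Rps20 by 0.53 (adjusted p = 0.03409). Rpl7l1, a nucleolar relative of Rpl7, rose by 0.81 (adjusted p = 0.01318), at 213 to 247 CPM in pWT and 300 to 414 CPM in pIR. Rps4l, the pseudogene copy of Rps4x, rose by 1.01 (adjusted p = 0.01251; 289 to 366 CPM against 465.5 to 768 CPM), and Rpl15, a large-subunit protein, rose by 0.82 (adjusted p = 0.01422). Reads of Rps4l and of its parent may be split between them by the counting, so its values are uncertain. The 7 calls became 1 without pWT replicate 2, 3 without pIR replicate 2 and 4 without pIR replicate 3, and DESeq2 called 13.

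Short transcripts as a class were higher in these pIR blastocysts. Across all genes the Spearman correlation of fold change with transcript length was -0.33 (genes are not independent replicates), and the median of 1225 other genes under 1000 bases was 0.25, above that of the members. With the trend taken out the members' median turned to -0.19, with 2 rising and 7 falling. Mitochondrial ribosomal proteins rose in 34 of 78 cases and fell in 1 (median 0.56), with Mrpl1 at 1.18 (edgeR adjusted p = 0.01141), and 14 of 50 assembly factors rose and 3 fell (median 0.31), with Nmd3, the export adaptor of the large subunit, at 0.95 (adjusted p = 0.0114). The primitive endoderm markers summed to 298 to 465 CPM in pWT and 178 to 347 CPM in pIR, and the trophectoderm markers to 2717 to 5177 and 3582 to 5474 CPM. Their part in these differences was not tested. The difference between the pIR effect in blastocysts and in morulae passed for 0 members beside 0% of all genes. By edgeR 4 had an unadjusted p under 0.05, and DESeq2 called 0.

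**Figure D3:**
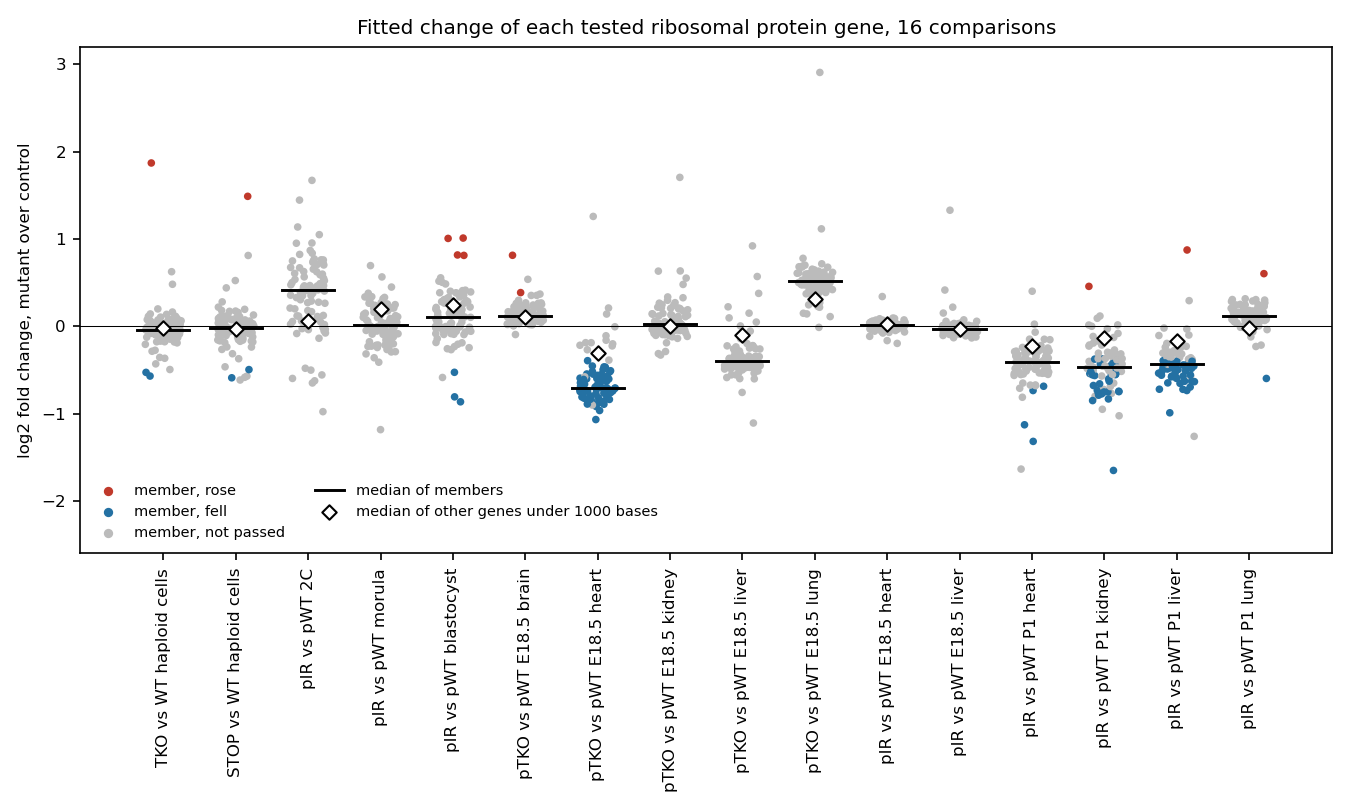
Log2 fold change of each tested ribosomal protein gene in the 16 comparisons of a mutant group with its control (vertical axis; 0 is no difference); each point is 1 gene, coloured by whether it rose, fell or did not pass, bars mark the members' medians, and diamonds mark the medians of other genes under 1000 bases. The E18.5 pTKO heart (median -0.70) and the P1 pIR liver, kidney and heart (-0.43, -0.46 and -0.41) lie lowest.

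In the first E18.5 batch, the pTKO heart differed most. The share was 3.46 and 3.48% in pWT and 2.30 and 2.31% in pTKO hearts, and 0 of 87 tested members rose while 72 fell, beside 26.8% of all genes called (15% up, 11.9% down). The fall took in 43 of 52 large-subunit and 29 of 35 small-subunit genes, and the median was -0.70 against 0.01. Other genes under 1000 bases had a median of -0.31 and fold changes were higher for longer transcripts (Spearman 0.32 across genes). With that trend taken out, 47 members fell, 1 rose, and the median was -0.42. Rplp1, an acidic stalk protein that recruits elongation factors, lay at 779 and 761 CPM in pWT and 387 and 389 CPM in pTKO. Both pTKO libraries were far below both pWT libraries (log2 -1.07, SE 0.10, edgeR adjusted p = 0.01651). Rplp0, its partner, lay at 1261 and 1290 against 694 and 731 CPM (-0.92, adjusted p = 0.01746), and Rpl36 at 271 and 245.3 against 139 and 141 CPM (-0.96, adjusted p = 0.01854). The smallest called fall was that of Rpl30 (-0.39, adjusted p = 0.04093). Of the 15 that did not pass, Rpl23 had 0.14, Rpl22l1 had 0.00 and Rpl39l had 1.26 (adjusted p = 0.08902). The count was 0 without pTKO replicate 1 and 0 without pTKO replicate 2, where the lone pTKO library is assumed to vary like the others, and 71 and 74 without either pWT library, with medians from -0.75 to -0.64 in these 4 fits.

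Other genes of the translation machinery fell in these hearts as well. All 4 ribosomal proteins outside the name rule fell (median -0.87), as did 40 of 78 mitochondrial ribosomal proteins with 0 rising (median -0.54; Mrps24 -1.19, edgeR adjusted p = 0.01693). Of 18 elongation factors and other TOP messages 8 fell and 3 rose, led by subunits of the initiation factor eIF3 (Eif3f -0.80, adjusted p = 0.01762). Assembly factors went both ways, with 7 rising and 15 falling, and the 3 with the smallest p rose: Ncl, the nucleolar protein nucleolin, by 1.28 (adjusted p = 0.01693), Wdr43 by 1.13 and Dkc1 by 0.95. Markers of other cells moved with the genotype too. The 10 haemoglobin genes summed to 3788 to 3930 CPM in pWT and 1199 to 2433 CPM in pTKO, and the skeletal muscle list to 4811 to 4985 and 3286 to 3386 CPM. Heart markers summed to 29010 to 38080 and 37160 to 37260 CPM, and the liver list to 3.77 to 87.9 and 9.94 to 1862 CPM. Their part in the fall was not tested. The pTKO hearts, at 2.30 and 2.31%, lay inside the range of the pWT hearts of the second batch (2.24 to 2.59%). Likewise, Rplp1 lay at 247 to 250 CPM in the second batch's pWT hearts, below the pTKO hearts of the first.

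Brain differed in the other direction, by less. The share was 1.43 and 1.5% in pWT and 1.61 and 1.65% in pTKO, and 2 of 85 members rose while 0 fell, beside 1.75% of all genes called (0.689% up). The median was 0.12 against 0.01, near the 0.10 of other short genes, and 0.03 without the length trend. Rps4l lay at 42.5 and 42.9 CPM in pWT and at 77.5 and 74.5 CPM in pTKO, without overlap (log2 0.81, SE 0.08, edgeR adjusted p = 0.00023). It was also higher without overlap in pTKO liver (42.3 and 47.2 against 77.6 and 67.6 CPM) and kidney (70.6 and 66.4 against 125 and 94.1 CPM). The same held in lung (94.5 and 105 against 277 and 135 CPM). In these 3 organs it did not pass, and 34.8%, 33.4% and 14.6% of all genes were higher without overlap. In heart its groups overlapped. Rps27a, made as a fusion with ubiquitin, was at 76.6 and 73.8 against 107 and 92.4 CPM (0.39, adjusted p = 0.03548), and its call was lost with the length trend taken out, where 1 member rose. The count was 7 or 12 without pTKO replicate 1 or 2. The difference between the pTKO effects in heart and brain passed for 74 members, all lower in heart, beside 26.8% of all genes (12% lower). That count was 43 without brain pWT replicate 1, and this test was added after the shares had been seen.

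In kidney, liver and lung 0 of 87 members passed, beside 0% of all genes in each. Unadjusted p under 0.05 by edgeR was reached by 4, 5 and 4 members, and DESeq2 called 1, 0 and 0. Liver stood at 2.48 and 2.64% in pWT and 1.98 and 2.31% in pTKO, with a median of -0.40, and lung at 3.78 and 4.02% in pWT and 4.10 and 6.37% in pTKO, with a median of 0.52. Lung pTKO replicate 1, at 6.37%, stood apart from the other 3 lungs: without it the median was 0.16, and without pTKO replicate 2 it was 0.84. In lung, liver and kidney the count of called members changed when 1 library was left out. These fits leave 1 library in a group, which is assumed to vary like the others.

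Rpl39l was higher in both pTKO libraries than in both pWT libraries in each of these 5 organs, at low levels. It lay at 1.43 and 1.05 against 2.55 and 3.77 CPM in heart, 0.732 and 0.942 against 1.64 and 1.84 CPM in liver, and 1.02 and 0.576 against 9.52 and 1.84 CPM in lung, where the control values come first. In kidney it lay at 0.36 and 0.086 against 0.621 and 0.887 CPM, and in brain at 0.187 and 0.555 against 0.64 and 1.24 CPM. None passed the test by edgeR, with adjusted p = 0.08902 in heart, 0.6211 in liver, 0.8042 in lung and 0.37 in kidney, and in brain it was below the filter. Of all genes tested, 39.9% in heart, 34.8% in liver, 14.6% in lung, 33.4% in kidney and 26.6% in brain were higher without overlap. In haploid cells Rpl39l was higher in every TKO library, as given above. In second-batch E18.5 hearts it was also higher in pIR, at few counts. It lay there at 0.116, 0.37, 0.388 and 0.366 CPM in pWT and 0.409, 0.532, 1.411 and 2.755 CPM in pIR, without overlap. Of all genes tested there, 1.4% were higher without overlap. In the livers of that batch Rpl39l lay at 0.126 to 0.717 CPM in pWT and 0.4 to 1.978 CPM in pIR, with overlap. In P1 pIR organs it lay the other way, also at low levels: 2.30, 0.931 and 1.59 CPM in pWT hearts against 0.597 and 0.48 CPM in pIR, 0.638, 1.5 and 0.917 against 0.475 and 0.196 CPM in liver, and 0.254, 0.46 and 0.505 against 0.143 and 0.103 CPM in lung, without overlap. Of all genes tested, 15.1% in P1 heart, 51.7% in liver and 15.8% in lung were lower without overlap. Rpl39l did not pass in heart (-1.63, edgeR adjusted p = 0.1159) or liver (-1.26, adjusted p = 0.1302). It was below the filter in lung and kidney, and in kidney the groups overlapped.

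**Figure D4:**
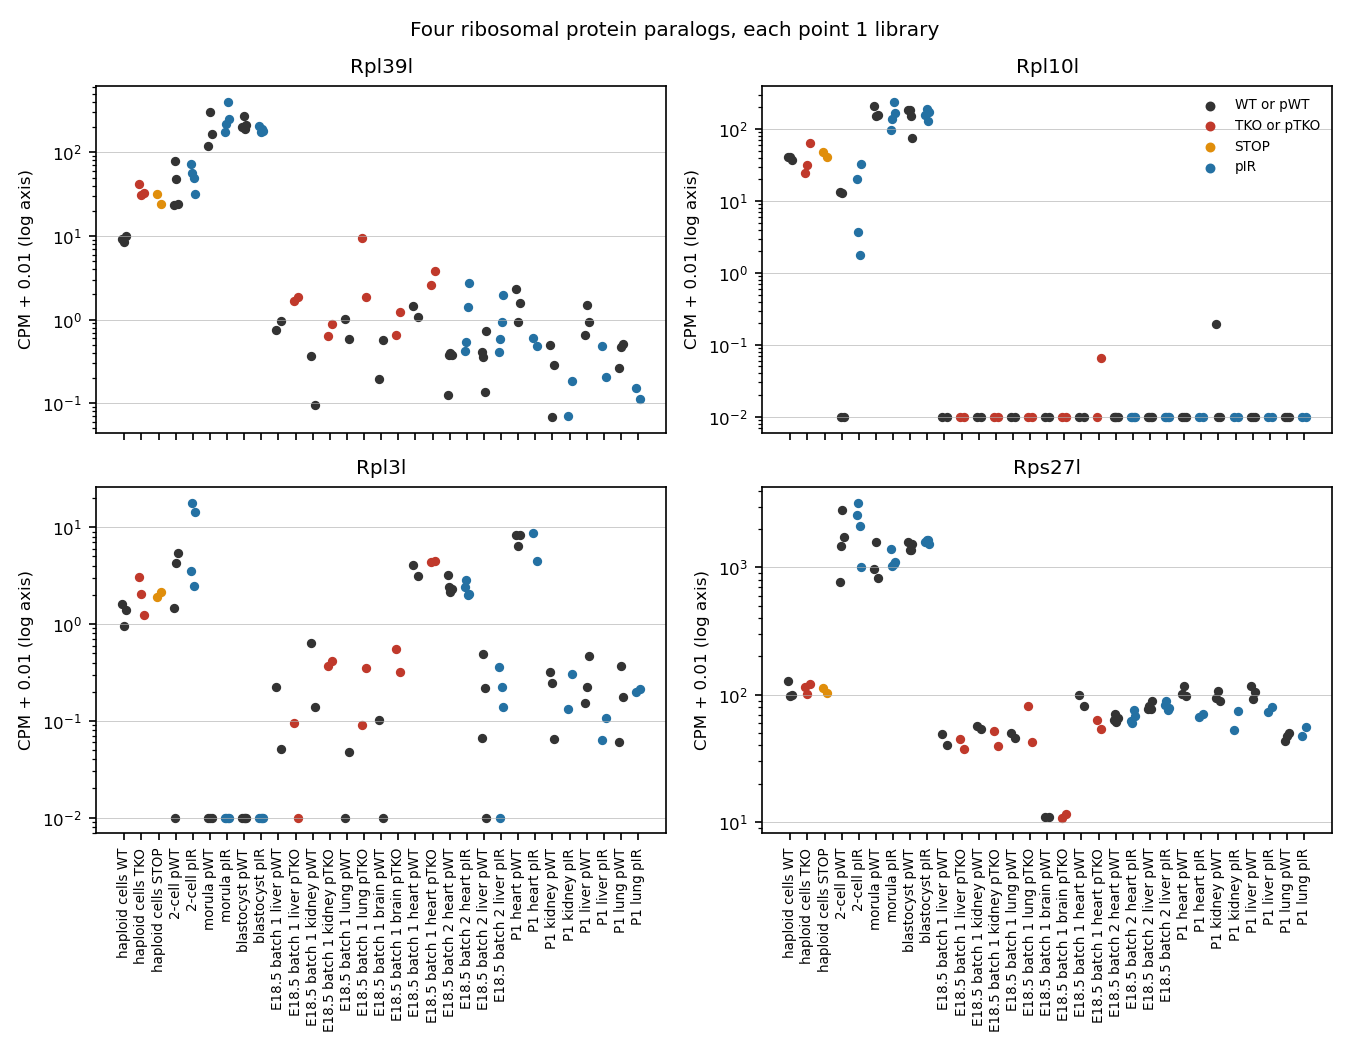
CPM of 4 near copies, Rpl39l, Rpl10l, Rpl3l and Rps27l, in each library (vertical axis, log scale, with a small constant added so that 0 can be drawn), by stage and organ; each point is 1 library coloured by genotype. Rpl10l and Rpl39l are highest in morulae and blastocysts and near 0 in organs, and Rpl3l is at 0 counts in morulae and blastocysts.

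In the second E18.5 batch, pIR and pWT organs had nearly the same values. Heart shares averaged 2.34% in pWT and 2.31% in pIR, and liver shares 2.55% and 2.47%. Of 86 tested members 0 passed in heart, beside 0.0137% of all genes, and 0 in liver, beside 0%. By edgeR 1 and 2 members had an unadjusted p under 0.05, and DESeq2 called 0 in both. Medians were 0.01 and -0.03. The difference between the 2 organs' pIR effects passed for 0 members beside 0.00622% of all genes. No member had an unadjusted p under 0.05 by edgeR, and DESeq2 called 0.

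On postnatal day 1 the members' share was lower in pIR than in pWT libraries of kidney, liver and heart and higher in lung, and the number of genes that passed differed widely between the organs. Kidney shares were 6.26 ± 0.339% in pWT (n = 3, 5.98 to 6.64%) and 4.20 and 4.80% in pIR. Liver shares were 4.91 ± 0.456% in pWT (n = 3, 4.51 to 5.41%) and 2.88 and 2.94% in pIR, heart shares 3.88 ± 0.168% (3.69 to 4.03%) and 3.10 and 3.21%. In each of these the pIR libraries lay below all pWT libraries. Lung shares were 2.95 ± 0.0858% (2.87 to 3.04%) and 3.19 and 3.34%, where both pIR libraries lay above.

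In kidney 34 of 86 tested members fell and 1 rose, beside 10.6% of all genes called (3.06% down, 7.58% up), with a median of -0.46 against -0.01, and -0.13 for other short genes. Rpl22l1 lay at 193, 226 and 127 CPM in pWT and 30.5 and 81.2 CPM in pIR, below all controls though spread widely, and fell by 1.65 (SE 0.41, edgeR adjusted p = 0.04097). Rps19, a small-subunit protein mutated in Diamond-Blackfan anaemia, lay at 758, 837 and 690 against 310 and 517 CPM (-0.83, adjusted p = 0.04525). Replicate 1 was the lower pIR library for both genes. Rpl36al, the autosomal copy of Rpl36a, fell by 0.79. With the length trend taken out, 24 fell and 1 rose (median -0.34), and DESeq2 had 61 falling and 1 rising. The count of 35 calls fell to 1 without pWT replicate 1 and to 1 without pIR replicate 1, to 7 without pWT replicate 2, and was 55 without pIR replicate 2, with a median of -0.67. Kidney markers summed to 714 to 836 CPM in pWT and 1558 to 1659 CPM in pIR, and the list drawn up for trophectoderm to 658 to 966 and 461 to 534 CPM. Their part in the fall was not tested.

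In liver 51 of 86 fell and 1 rose, beside 39.2% of all genes called (18.47% down, 20.7% up), with a median of -0.43 against -0.03, and -0.17 for other short genes. Of these falls 30 were of large-subunit and 21 of small-subunit genes. Rpl21, a large-subunit protein, lay at 166, 112 and 138 CPM in pWT and 50.4 and 59.2 CPM in pIR (log2 -0.99, edgeR adjusted p = 0.0007828). Rps23, which lies at the decoding centre, was at 890, 697 and 722 against 353 and 381 CPM (-0.72, adjusted p = 0.003071), and Rps20 fell by 0.72 (adjusted p = 0.008565). All pIR values of Rpl21 and Rps23 lay below all pWT values. Blood genes moved with the genotype: haemoglobin messages summed to 76910 to 97470 CPM in pWT and 22700 to 33890 CPM in pIR, erythroid and blood markers to 55770 to 69590 and 15570 to 23770 CPM, and liver markers to 33530 to 43210 and 72280 to 87730 CPM. With haemoglobin left out of the total, the shares averaged 5.38% and 3.00%, a total that raises the pWT share more, since haemoglobin was higher there. The part of the blood cells in the gap was not tested. With the length trend taken out 21 fell and 1 rose (median -0.31). Without pWT replicate 1 or 3, 23 or 24 members were called, and without pIR replicate 1 or 2, 20 or 33.

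In heart 4 of 87 fell and 0 rose, beside 2.32% of all genes called (1.54% up, 0.786% down), with a median of -0.41 against 0.00, and -0.23 for other short genes. Of the tested members 69 were lower in both pIR libraries than in every pWT library, as were 15.1% of all genes tested. An unadjusted p under 0.05 was reached by 59 members, or 67.8%, and by 24.9% of all genes. Rps27a lay at 296, 424 and 393 CPM in pWT and 124 and 196 CPM in pIR (log2 -1.32, edgeR adjusted p = 0.04338). Rps4l lay at 120, 137 and 127 against 68.1 and 57.2 CPM (-1.13, adjusted p = 0.03196), and Rpl21 and Rpl36al fell by 0.74 (adjusted p = 0.03985) and 0.69. DESeq2 called 45, all falling, 1 fell with the length trend taken out, and 2 were called without pIR replicate 1 and 0 without any other 1 library. Haemoglobin messages summed to 5272 to 6602 CPM in pWT and 3031 to 3511 CPM in pIR, and heart markers to 34710 to 44770 and 32540 to 34430 CPM. Their part was not tested.

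In lung 1 of 85 rose and 1 fell, beside 2.6% of all genes called (1.52% up, 1.07% down), with a median of 0.12 against -0.01. In both pIR libraries 67 members were higher than in all 3 pWT libraries, as were 24.2% of all genes, and 13 members (15.3%) had an unadjusted p under 0.05, as did 19.7% of all genes. Haemoglobin messages summed to 25570 to 38610 CPM in pWT and 12520 to 16540 CPM in pIR, lower as in liver and heart, and lung markers to 19540 to 21680 and 23860 to 24310 CPM. Tests of the difference between organs were added after the shares had been seen, and all 3 use the same lung libraries. The pIR effect was lower in liver than in lung for 50 members, beside 19.1% of all genes (7.85% lower), and lower in kidney than in lung for 23, beside 3.53% (0.839% lower). For heart against lung 0 passed beside 0.012% of all genes, while 72 members (81.8%) and 15.7% of all genes had an unadjusted p under 0.05 by edgeR, and DESeq2 called 44.
The kidney count was 0 to 9 when any 1 of the 5 lung libraries, kidney pWT replicate 1 or 2, or kidney pIR replicate 1 was left out, and 48 without kidney pIR replicate 2. The liver count was 10 without lung pIR replicate 2, 20 to 33 without any 1 of lung pIR replicate 1, lung pWT replicates 2 and 3, liver pWT replicates 1 and 3 and either liver pIR library. For heart, 13 passed without heart pIR replicate 1.

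Rpl7l1 and Rps4l were called in several of these organs. Rpl7l1 was the 1 member that rose in kidney, liver and lung: it lay at 145, 127 and 142 against 178 and 189 CPM in kidney (log2 0.46, edgeR adjusted p = 0.03067), 81.7, 72 and 63 against 107 and 101 CPM in liver (0.87, adjusted p = 0.0003656) and 84.9, 83.8 and 82.2 against 134 and 127 CPM in lung (0.60, adjusted p = 0.01373). In heart it lay at 80.8, 88.9 and 75.3 against 119 and 112 CPM and did not pass, and in none of the 4 organs did the groups overlap. Rps4l was lower in pIR kidney (68.3, 81.6 and 79.7 against 43 and 39.3 CPM; -0.85, adjusted p = 0.009543) and lung (58, 76.2 and 63.1 against 44.3 and 44.9 CPM; -0.60, adjusted p = 0.03837), where it was the 1 member that fell. In liver it had -0.20 (adjusted p = 0.388). Both genes had also risen in pIR blastocysts. At E18.5 Rps4l had 0.34 and 0.42 in pIR heart and liver, and neither passed.

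**Figure D5:**
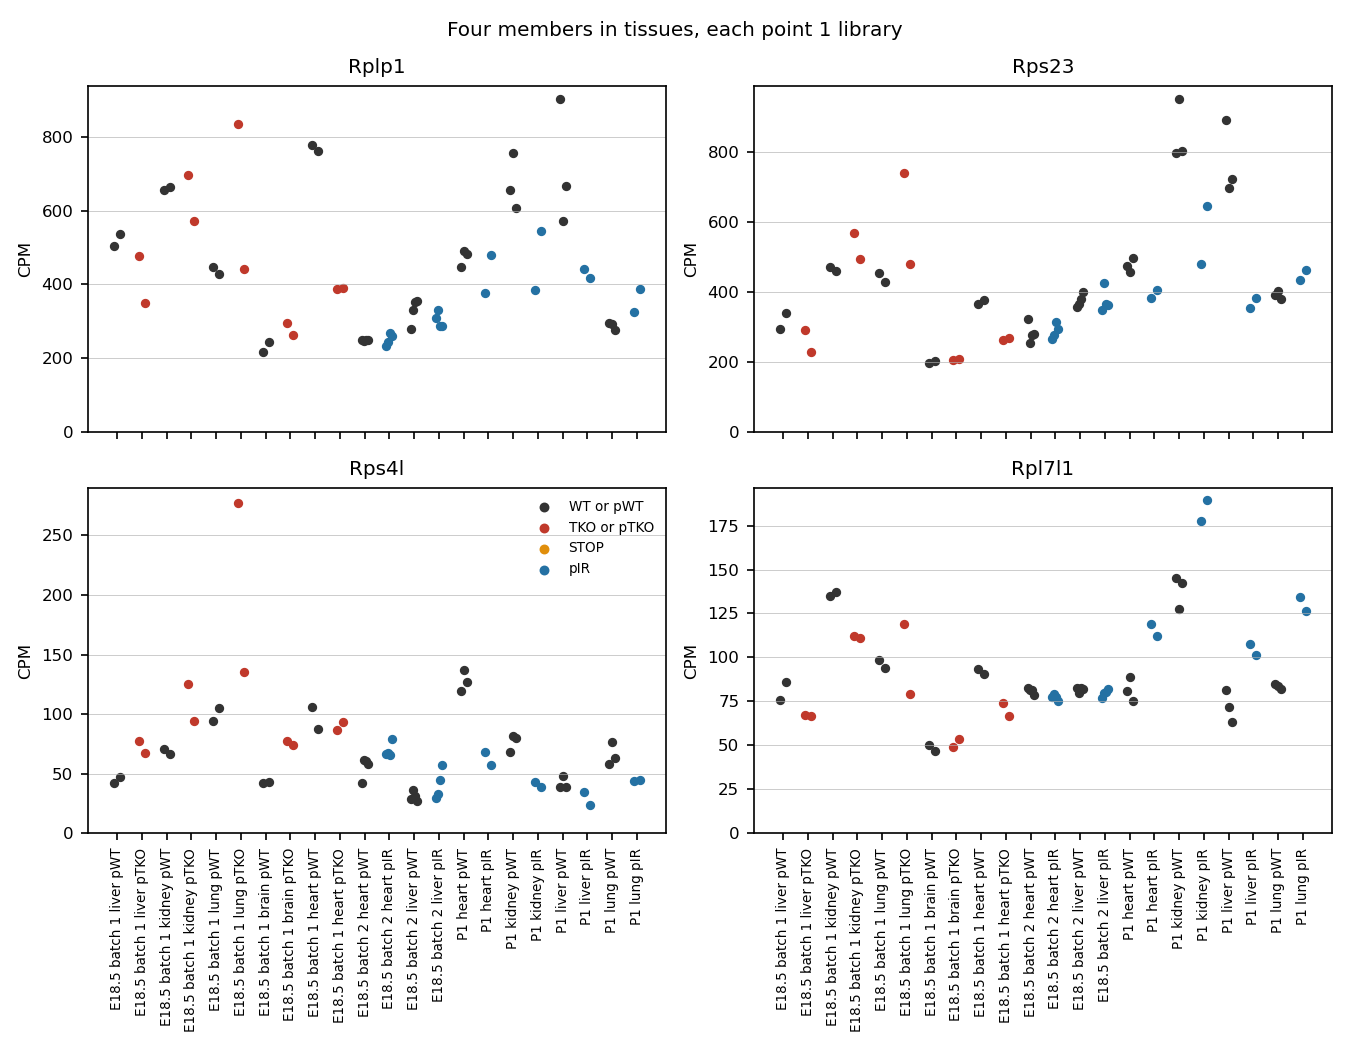
CPM of Rplp1, Rps23, Rps4l and Rpl7l1 in each organ library (vertical axes from 0), by organ, age and batch; each point is 1 library coloured by genotype. Rplp1 lies at 387 and 389 CPM in first-batch pTKO hearts and 779 and 761 CPM in their controls, and Rpl7l1 is higher in pIR than in pWT libraries of all 4 postnatal organs.

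Of the fixed lists, 8 of 18 elongation factors and other TOP messages fell in kidney and 8 in liver with 0 rising (medians -0.22 and -0.32), beside 3.06% and 18.47% of all genes falling. Gas5, a noncoding TOP transcript that hosts small nucleolar RNAs, led in kidney (-1.02, edgeR adjusted p = 0.01271), and Pabpc1, the poly(A)-binding protein, in liver (-0.79, adjusted p = 0.00133). Of the ribosomal proteins outside the name rule 1 of 4 fell in kidney (Fau, the precursor of Rps30, -0.69, adjusted p = 0.04936) and 3 in liver (Rpsa, the laminin receptor protein, -0.58, adjusted p = 0.008262). Of 78 mitochondrial ribosomal proteins, 14 rose and 7 fell in liver (median 0.04), no larger a share than the 20.7% of all genes that rose and the 18.47% that fell. In heart 1 fell (median -0.45), beside 0.786% of all genes, and their median in kidney was -0.02. Of the 14 regulators, Mtor, the kinase that controls TOP messages, rose in kidney (0.49, adjusted p = 0.03067) and liver (0.76, adjusted p = 0.0005306). Eif4ebp2, a repressor of cap-dependent initiation, rose with it (0.76, adjusted p = 0.02685, and 1.06, adjusted p = 5.472e-05). Both were picked by their small p from the 14, whose counts are not given here, and 20.7% of all genes rose in liver. Any link of these genes to the TOP messages was not tested.

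The pWT organs of postnatal day 1 also served to place heart against the mean of kidney, liver and lung. Of 88 members 10 were higher and 26 lower in heart, beside 66.6% of all genes called (32.4% up, 34.3% down), so a smaller share of members than of all genes was called. Rpl3l, the muscle copy, lay at 6.46 to 8.27 CPM in the 3 hearts and at 0.05 to 0.46 CPM in the other organs (log2 5.16, SE 0.33, edgeR adjusted p = 4.5e-09). Rpl39l was higher by 1.76 and Rps4l by 1.18, while Rps19 was lower (-0.86), as was Rpl10a (-0.58). Mitochondrial ribosomal proteins were higher in 76 of 78 cases and lower in 0 (median 0.95). Over all 56 organ libraries Rpl10l had 0 counts in 54, which at this depth, with a floor of 3 counts a library, is below detection rather than shown absent, and its highest value was 0.185 CPM against 240 CPM in embryos after the 2-cell stage. Rpl39l reached at most 9.52 CPM in organs and 403 CPM in embryos. The count of 36 became 17 without heart replicate 1, 21 without liver replicate 1 and 20 without liver replicate 3.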

How the data were processed

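Poly(A) RNA was sequenced from the 87 libraries as paired-end reads; per the labels' protocols, bulk samples used an oligo(dT) mRNA kit, and a full-length amplification (Smart-Seq2) protocol is described as well, without naming which libraries used it. The authors deposited raw counts per gene symbol in 10 tables. Per the submitters' processing notes, the tools were Trim Galore 0.6.6, HISAT2 2.1.0, featureCounts 1.6.4 and DESeq2 with the mm10 build; no strand setting or treatment of multiply mapped reads is given in the sources used here. Full-length amplification and size selection can favour or lose short transcripts, which ribosomal messages are.

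From the counts, the members' share of each library's total and CPM were computed. Each comparison was fitted over all genes with edgeR 4.0.16 in R 4.3.3 (quasi-likelihood F test, filterByExpr with a minimum count of 10, TMM scaling, Benjamini-Hochberg adjusted p under 0.05, two-sided). Related groups of 1 table were fitted together, so they share an estimate of spread. There were 23 comparisons, with 4 differences between organs added after the shares were seen. Alternatives were DESeq2 1.42.0, no filter, RLE scaling factors, TMM without the members, a length trend taken out in 25 bins (fitted on other genes, with the median length of a gene's annotated transcripts), each library left out in turn, a replicate block, and totals without haemoglobin. The test was checked on simulated data with the same small spread for every gene. That check does not cover groups that vary more, such as the 2-cell libraries. No 2 replicates agreed within sampling noise (smallest chi-square 3.65 per degree of freedom). Coordinates and lengths matched 24418 symbols (96.6%) and 88 members.

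The members and gene lists were chosen with earlier results of these data known. Members named are near copies and their parents, the most and least abundant, the 4 largest called rises and falls of a comparison, those on chromosome X or 5 where a library stood apart there, and those with a sequence shown. Genes of the related lists are the 3 with the smallest p. Rpl28, Rpl30 and Rpl23 were named after their values were seen, to give the ends of a range. Counts are precise at these totals with some exceptions. These are Rpl3l, Rpl10l and Rpl39l in organs, Rpl32l throughout, and some members in 2-cell libraries, among them Rpl3l, Rpl10l and Rpl36. Rpl36 lay at 0.795 CPM in 2-cell pIR replicate 2. Some genes are not reported here.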

Additional observations from a re-analysis of the deposited data

Results flagged for a closer look

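In the groups of 4 libraries, 57 tests for a library far from the other 3 were made, each of 1 measure (the share or a gene's level) in 1 group. Of these, 5 found one, where chance gives about 1 in 20. In the second E18.5 batch, the share was 2.59% in pWT heart replicate 1 and 2.242 to 2.265% in the other 3, and 2.664% in pIR liver replicate 2 against 2.387 to 2.408% in its group. Rpl7l1 stood at 157.2 CPM in 2-cell pIR replicate 4 and at 8.47 to 15 CPM in the other 3, and at 79.91 CPM in second-batch pWT liver replicate 2, within 3 CPM of the rest (82.26 to 82.55). Rps4l stood at 79.39 CPM in second-batch pIR heart replicate 4 against 66.11 to 66.97 CPM.

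The effect of genotype differed between organs for 23 members (pIR, postnatal kidney against lung), 50 members (liver against lung) and 74 members (pTKO, embryonic heart against brain), each by a test of the difference. Members were lower in the first organ of each pair in every one of these calls. The shares of all genes called are given with each test above. In the same order, 80.2%, 82.8% and 89.7% of members had an unadjusted p under 0.05 by edgeR. So did 19.4%, 32.6% and 40.4% of all genes. These tests were added after the shares had been seen, and each count fell when some single libraries were left out.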

How the results depend on the processing

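Of the fold changes of single named genes, 742 kept direction and call under the alternatives that keep all libraries, 70 lost the call and 1 reversed, Rpl39 from 2-cell to morula in pIR (-0.003 without the length trend). With 1 library left out, 693 kept the call and 242 lost it. The cause was not tested beyond fewer samples. For the alternatives, here and above, the shares of all genes called are not given. Their counts of called members show only how far the calls depend on the processing. By DESeq2 the called members numbered 8 in STOP, 1 in pIR morulae, 13 in pIR blastocysts, 1 in pTKO kidney, 45 in P1 heart, 62 in P1 kidney, 44 for heart minus lung and 55 for kidney minus lung. With no filter they numbered 13 in pTKO brain, 11 in P1 heart, 9 from morula to blastocyst in pIR, 20 for P1 heart against other organs and 1 for heart minus lung. With the length trend out, medians were -0.166 in pIR morulae, -0.185 in pIR blastocysts, 0.026 in pTKO brain, -0.415 in pTKO heart, -0.184 in P1 heart, -0.305 in P1 liver and 1.939 from 2-cell to morula in pIR, and calls were 1 in pTKO brain, 1 in P1 heart, 22 in P1 liver, 15 for kidney minus lung and 20 for liver minus lung. Totals without haemoglobin moved 4 of 31 mean shares.

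With the replicate number as a block, calls were 0 in P1 heart, 53 in P1 kidney and 7 from morula to blastocyst in both pWT and pIR. In no comparison with 3 or more pairs did every same-numbered pair correlate above 0.1. With fewer pairs, pairing by number could not be judged, and P1 lung had correlations of 0.195 and 0.186. Same-numbered pTKO and pWT deviations had correlations of -0.342 in heart, -0.159 in kidney, -0.213 in liver, 0.171 in lung and 0.011 in brain. A block with crossed numbers, added after seeing the data, gave 66, 0 and 0 calls in heart, kidney and liver.

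Leaving out 1 library gave these ranges of called members: TKO 1 to 12, STOP 1 to 13, pIR blastocyst 1 to 9, pTKO brain 3 to 12, heart 0 to 74, kidney 0 to 9, liver 0 to 57, lung 0 to 84, P1 heart 0 to 2, kidney 1 to 55, liver 20 to 53, lung 0 to 2, morula to blastocyst 7 to 17 (pWT) and 6 to 16 (pIR), P1 heart against other organs 17 to 35, heart minus lung 0 to 13, kidney minus lung 0 to 48, liver minus lung 10 to 52, and heart minus brain 43 to 77. Medians ranged from 0.072 to 0.178 in pTKO brain, -0.753 to -0.635 in heart, -0.553 to -0.27 in liver, 0.157 to 0.842 in lung, -0.671 to -0.33 in P1 kidney and -0.187 to -0.035 for P1 heart against other organs. Groups of 2 libraries, the low organ counts of Rpl3l, Rpl10l and Rpl39l and the low 2-cell counts of Rpl3l, Rpl10l and Rpl36 limit what could be detected.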
